A study of Mus musculus with 42 samples.

Results

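Of the 2551 chromatin regions that were more accessible in lung mesenchymal cells cultured on a stiff 32kPa gel than on a soft 0.2kPa gel, 460 lay inside a region whose accessibility on 32kPa was still below that of freshly sorted cells. These 460 regions are described here. They were chosen from the authors' lists of differential regions: a region entered when its 32kPa concentration exceeded its 0.2kPa concentration, when it overlapped a region with a lower concentration on 32kPa than in sham cells, and when it overlapped none with a higher one. Of the remaining stiffness-raised regions, 1760 overlapped a region above fresh cells (newly opened in culture) and 331 overlapped no region of the 32kPa against sham list. The list of 2558 regions held only 7 that were lower on 32kPa, so nearly all listed differences between the gels had the same direction. The part of ATAC depth or normalisation in this was not tested.

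The series combined RNA-seq with ATAC-seq, which reads accessible DNA through insertion of adapters by a transposase. CD1 mouse lungs carrying a Col1a1-GFP reporter gave GFP-positive cells without CD45, CD326 or CD31 (sham), and the same kind of cells were grown for 5 days in serum-containing medium on collagen-coated PDMS substrates of 0.2kPa or 32kPa, with 3 libraries per group and assay. C57BL/6 lungs gave Col1a2-lineage-traced cells without CD45 or CD326 after sham treatment or at 14 and 56 days after bleomycin ("bleo"), with 4 libraries per group and assay. Both gel groups differ from CD1 sham in culture, medium and time outside the animal as well as in substrate, so these cannot be told apart in any comparison with sham, and the cells studied are those in which a collagen I promoter is or was active. The labels give no ages and leave the origin of the replicates (animals, cultures) unstated, so the p-values refer to the spread between these libraries, which may be technical.

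Accessible regions mark promoters and distal regulatory elements. Promoters of broadly expressed genes are often rich in CpG and in GC boxes read by SP and KLF factors, while distal elements of activated fibroblasts often carry AP-1 sites, bound by Fos and Jun dimers, and TEAD sites, bound with YAP and TAZ. Stiff substrates are known to drive fibroblasts toward an activated, contractile state, and culture itself changes their chromatin. A region raised by stiffness can therefore be one that culture created or one that fresh cells already had. By the rule that chose them, the 460 regions overlap regions, mostly wider, that were more open in fresh cells than on the stiff gel. The level in fresh cells over the same window is known for 8 of them alone. Whether fresh cells had the exact window of the rest open was not tested.

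The sequences below are forward-strand mm10 (GRCm38) sequence of whole regions, 5′ to 3′, and show the kinds of sequence found among the 460. In the first 5, from Col1a1 to the intronic Wnt11 region, capitals mark an AP-1 match (TGANTCA) and any TEAD (GGAATG or its complement) or SP/KLF (GGGCGG or its complement) match. The last 3 are GC-rich regions; capitals mark SP/KLF matches, the first pair of which overlaps by 1 base in the second Wnt11 region, and 9930021J03Rik holds none of the 3 motifs.
Col1a1 intron 1, chr11:94936804-94936897: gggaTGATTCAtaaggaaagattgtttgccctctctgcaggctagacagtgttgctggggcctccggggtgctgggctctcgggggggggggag
Sparc intron 1, chr11:55418171-55418426: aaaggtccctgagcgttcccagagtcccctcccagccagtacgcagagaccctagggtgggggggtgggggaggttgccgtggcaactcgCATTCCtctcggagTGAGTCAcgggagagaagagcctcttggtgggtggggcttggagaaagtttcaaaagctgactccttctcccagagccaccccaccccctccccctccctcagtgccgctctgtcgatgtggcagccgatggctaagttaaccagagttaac
Tns3 intergenic, chr11:8247604-8247695: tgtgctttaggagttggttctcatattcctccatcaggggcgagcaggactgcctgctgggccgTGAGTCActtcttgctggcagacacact
Pik3r1 intergenic, chr13:101879929-101880130: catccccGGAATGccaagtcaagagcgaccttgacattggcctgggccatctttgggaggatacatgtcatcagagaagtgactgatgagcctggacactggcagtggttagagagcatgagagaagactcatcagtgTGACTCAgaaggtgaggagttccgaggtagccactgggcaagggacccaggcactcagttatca
Wnt11 intronic (intron of another transcript), chr7:98962182-98962342: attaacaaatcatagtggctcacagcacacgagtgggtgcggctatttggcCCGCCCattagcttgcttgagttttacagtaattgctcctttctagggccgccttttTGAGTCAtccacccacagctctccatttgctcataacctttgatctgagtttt
Wnt11 intergenic, chr7:98815956-98816100: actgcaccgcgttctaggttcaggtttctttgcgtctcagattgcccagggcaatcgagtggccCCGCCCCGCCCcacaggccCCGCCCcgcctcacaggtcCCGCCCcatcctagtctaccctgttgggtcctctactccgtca
Tmem131 promoter, chr1:36939842-36940050: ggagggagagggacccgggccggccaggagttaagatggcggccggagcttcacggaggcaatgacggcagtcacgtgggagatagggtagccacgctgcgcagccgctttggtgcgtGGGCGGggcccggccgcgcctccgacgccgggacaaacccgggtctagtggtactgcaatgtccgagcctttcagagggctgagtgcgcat
9930021J03Rik promoter, chr19:29806062-29806204: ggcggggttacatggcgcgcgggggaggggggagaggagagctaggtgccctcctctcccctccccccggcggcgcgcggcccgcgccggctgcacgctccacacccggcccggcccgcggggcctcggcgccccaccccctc

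The regions were narrow listed windows inside wider listed regions that were lower on 32kPa than in sham. Accessibility inside a member was not compared with that around it. Concentrations are the authors' log2 mean normalised read counts per group; no value per library is in the lists, so these values are descriptions with no error or test of their own. All 460 lay fully inside a sham-list region, and 455 such regions held them, 1.1% of the 41182 regions lower on 32kPa than in sham. The median region was 174 bp wide against 480.5 bp for the sham-list region around it, covered 42.4% of it, and had its centre 63 bp from the centre of that region. Only 8 had the same start and end in both lists, whereas 1676 of the 1760 newly opened regions (95.2%) did. The level in sham is therefore known for the wider window, and for the exact window in those 8 alone.

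In the 8 regions measured over the same window in sham, 32kPa and 0.2kPa, the order of the log2 concentrations was the same, with sham highest and 0.2kPa lowest, an order that the rule requires. Near Ubb, which encodes ubiquitin (chr11:62549789-62550154, intergenic), they were 8.23 in sham, 7.13 on 32kPa and 6.04 on 0.2kPa. In an intron at Cnn3, encoding the actin-binding calponin 3 (chr3:121427542-121427807), they were 7.55, 6.63 and 5.59. In an intron at Mylip, a ubiquitin ligase (chr13:45391707-45391823), they were 5.66, 4.76 and 3.50. The other 5, which included Klrb1c, 0610038B21Rik, Rhof and C230035I16Rik, had sham concentrations of 5.53 to 6.66. At Ubb the step from sham to 32kPa was close to the step between the gels, while at Rhof (6.66, 5.99 and 4.98) it was smaller. The 32kPa concentrations of the 1684 regions with shared coordinates in the gel list and the 32kPa against sham list were identical, so these lists share a scale, while the sham concentrations of the 32kPa and 0.2kPa sham lists differed by 0.17 to 0.18 in 37722 shared regions.

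Across the 460, the median log2 concentration was 5.60 on 32kPa and 4.50 on 0.2kPa, and the median log2 fold was 1.08, against 1.10 for the newly opened regions. The authors' gel list had a smallest absolute log2 fold of 1 and an FDR of at most 0.05, and most of the 460 sat near that fold limit: 376 (81.7%) were under 1.2 and 6 reached 1.5. The smallest fold was 1.00, at Crip2, and the highest FDR 0.0477, at Ms4a5. On the sham side the edge was Marcks, with an FDR of 0.0488 against sham, and the nearest to sham were 4931430N09Rik and Bean1, both at a log2 fold of −0.38.

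The largest folds between gels came from repetitive or multicopy genes with few reads. Rn4.5s (log2 fold 2.67, concentrations 2.18 on 32kPa and −0.48 on 0.2kPa), Gm13290 (2.60), Lipo2 (2.36) and Gm13285 (2.18) led, and values at genes with near-identical copies are uncertain. Of these, Rn4.5s, Gm13290 and Gm13285 had 0 RNA reads in every CD1 library, and Lipo2 was not analysed here in the CD1 RNA. Promoters of the histone genes Hist2h3b (1.58) and Hist2h2aa2 (1.57), also close copies of others, came next. Then followed 1700101I11Rik (1.49), Cd101 (1.49), Marcks (1.48), an actin-filament crosslinking protein gene whose region lay 464467 bp from its start, and Etv3 (1.47), an ETS-family repressor.

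Over the wider sham-list regions, the median log2 concentration was 7.66 in sham and 6.29 on 32kPa, a median log2 difference of −1.38 that left 38.3% of the sham level. The difference ran from −3.27 at 9930021J03Rik, with 10.4% of the sham level, to −0.38, with 76.8%. In the 8 regions with the same window in both lists, the rule also fixes the place below sham on 0.2kPa. For the rest, the order of the gels and the order against sham were read over different windows. Of the 460 regions, 452 (98.3%) overlapped a region listed as lower than sham on 0.2kPa and 0 a higher one, and in the 451 with a single such region the median was 19.1% of sham. The smallest absolute log2 fold was 1 in that 0.2kPa list but 0.31 in the 32kPa against sham list. In the latter, 145 members (31.5%) were under 2-fold below sham and 315 were at least 2-fold below. Among the other 40727 regions lost on 32kPa, 98.0% were also lost on 0.2kPa, and among the other 2091 stiffness-raised regions 6.6% were lost and 9.66% gained there. Both gel comparisons share the sham libraries and were normalised separately, so their values stand side by side only.

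The 455 regions that held a member were wider and less reduced on 32kPa than the other lost regions. Their median width was 480 bp against 340 bp, their median sham concentration 7.66 against 6.91, and their median log2 difference from sham −1.38 against −2.08. A reduction of 2-fold or more was listed for 68.4% of them and for 89.6% of the others. The rule used these values, so they describe the choice.

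Promoter members were listed further below sham than the others, over windows that also differed: the sham-list regions had a median width of 606.5 bp and 415.5 bp and a median sham log2 concentration of 8.43 and 7.27. Promoter members, 166 regions or 36.1%, kept a median of 25.6% of the sham level on 32kPa and 13.9% on 0.2kPa, while the other 294 kept 44.1% and 22.2%. The middle 50% of promoter members on 32kPa ran from 19.1% to 41.1% and of the others from 30.8% to 59.0%, so the ranges overlapped. A reduction of 4-fold or more on 32kPa was listed for 78 of the 166 promoter members (47.0%) and 56 of the 294 others (19.0%). Split by RefSeq gene starts, the regions around members kept a median of 25.5% of sham at starts and 45.4% away from them, and the other lost regions 19.9% and 25.5%, so the lower level at starts was not particular to the members.

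**Figure D1:**
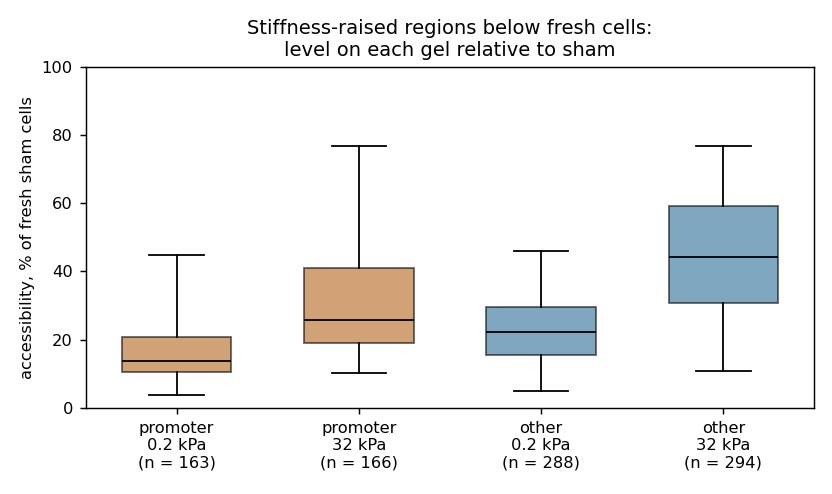
Accessibility on each gel as a percentage of CD1 sham, over the sham-list region around each member, split into promoter members and others; boxes show the quartiles and median, whiskers the lowest and highest region, and n the regions with a single value. Medians were 13.9% and 25.6% for promoter members and 22.2% and 44.1% for the others on 0.2kPa and 32kPa. The choice of members places every region below the sham level on 32kPa.

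The 460 regions lay close to gene starts far more often than the newly opened ones. Against the other regions lost on 32kPa, the comparison depended on the window used for the members. A RefSeq gene start (a 300 bp window around it) overlapped 122 members (26.5%), 24.4% of the other 40727 lost regions and 0.739% of the newly opened ones. It overlapped 36.3% of the 455 sham-list regions around members. Median widths were 174 bp for members, 480 bp for those sham-list regions and 340 bp for the other lost regions, so these shares are over unlike windows. Besides the 166 promoters, 134 were annotated to introns, 127 to intergenic sequence, 16 to 5′ UTRs, 9 to exons, 6 to transcript ends, 1 to a 3′ UTR and 1 to a non-coding transcript. Promoters made up 36.1% of them, against 2.25% of the other 2091 stiffness-raised regions and 1.14% of the newly opened ones. Within 1 kb of an annotated start lay 217 members (47.2%) and 32 newly opened regions (1.82%), and beyond 50 kb lay 18.0% against 48.4%. Promoter members centred just upstream of the start, at a median of −25.5 bp. The authors' annotation gave 449 distinct nearest genes, of which 11 had 2 or more members, among them Adamts5, Wnt11, Pik3r1, Tbc1d1 and Stxbp6.

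Few of the 460 overlapped a region that bleomycin had changed. Regions gained at day14 overlapped 3 of them (0.652%) and regions lost at day14 overlapped 7 (1.52%), against 21.1% and 0.335% of the other stiffness-raised regions and 1.31% and 6.65% of the other regions lost on 32kPa. Median widths were 174 bp for members and 340 bp for the other lost regions, so shares of these 2 classes are over unlike windows. Overlaps of the wider sham-list regions around members were not counted. No member overlapped a day56 region in either direction, against 0.526% gained and 0.0% lost among the other stiffness-raised regions and 0.0859% and 0.11% among the other lost ones. The day56 list is short, with 1510 regions against 25518 at day14.

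The 3 gained members, named after their values were seen, lay at 1700006H21Rik (chr13:107607597-107607709, day14 log2 fold 1.17), at Mir6541 (chr14:62858387-62858584, 2.10) and in intron 2 of 2 of Lrrc25 (chr8:70619046-70619212, 1.17), a leucine-rich repeat gene known from myeloid cells. The 7 lost ones, likewise named afterwards, included an intergenic region annotated to Adamts5 (chr16:86243107-86243436, −1.56), which encodes an aggrecan- and versican-cleaving protease, and a region at Papss2 (−1.08), which supplies the sulfate donor for glycosaminoglycans. The others were annotated to Has2os (−1.28), Asb1 (−1.19), Capza3 (−1.14), Oxr1 (−1.11) and Dcbld2 (−1.01).

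**Figure D2:**
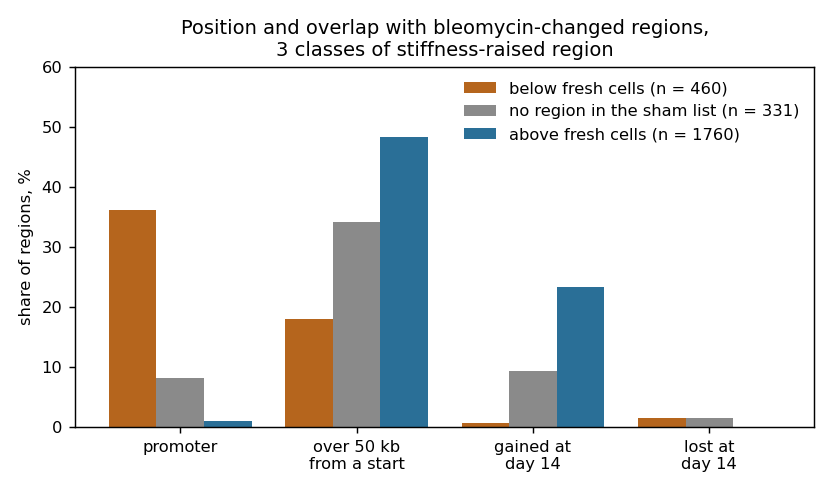
Share of regions (percent) annotated to a promoter, lying over 50 kb from a gene start, or overlapping a region gained or lost at 14 days after bleomycin, for the 460 members, the 331 regions with no region in the sham list and the 1760 regions above fresh cells. Promoters make up 36.1% of members and 1.14% of regions above fresh cells, and day14 gains overlap 0.652% and 23.4%.

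The sequence of the members resembled that of other lost regions in median base composition, and away from gene starts it held AP-1 matches more often. In the central 200 bp, median GC content was 55.5% in members and 44.5% in newly opened regions. For the 338 members away from RefSeq gene starts it was 52.5%, the same as for the other lost regions away from starts, and for the 122 at a start it was 64.8% against 67%. The share of regions over 60% GC differed more, at 26.0% against 19.8% away from starts and 64.8% against 75.9% at starts. For the sham-list regions around members it was 19.3% and 74.5%, close to the other lost regions, so this difference depended on the window. Since 166 members were annotated as promoters, the 338 include some of these. An AP-1 match, searched as TGANTCA on both strands, occurred in 104 members (22.6%), made up of 100 of the 338 away from starts (29.6%) and 4 of the 122 at a start (3.28%). Other lost regions held one in 14.1% away from starts and 3.11% at starts, and newly opened regions in 60.3%. No test was made of these shares, and a match is not evidence of binding.

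The share with an AP-1 match also differed with how far a region was below sham. Away from starts it was 39.2% (49 of 125) for members under 2-fold below sham and 23.9% (51 of 213) for those further below, while other lost regions split in the same way gave 30.3% and 11.9%. In windows of 100 bp and 400 bp, chosen after seeing the data, members away from starts gave 23.7% and 35.5% and other lost regions 8.28% and 20.1%. The sham-list regions around members, scanned at their own centres away from starts, gave 30.0%.

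TEAD matches (GGAATG) occurred in 13.3% of members and 11.8% of other lost regions, RUNX matches (TGTGGT) in 12.0% and 11.3%, and E-boxes (CAGCTG) in 14.8% and 17.6%. Newly opened regions held a TEAD match in 25.3% and a RUNX match in 22.7%. Among members away from starts, TEAD matches were in 23.2% of those under 2-fold below sham and 11.7% of those further below, against 16.7% and 13.1% of the other lost regions split in the same way. SP/KLF matches (GGGCGG) were in 33.9% of members, 29.5% of other lost regions and 2.44% of newly opened ones, and reached 62.3% of members and 62.4% of other lost regions at a start. ETS matches (CCGGAAG) were in 9.78%, 5.42% and 0.739%. Away from starts they were in 7.40% of members and 2.82% of other lost regions, and at starts in 16.4% and 13.5%. The sham-list regions around members, scanned at their own centres, held an ETS match in 5.27%, close to the other lost regions. These regions gave 3.79% away from starts and 7.88% at starts, so the difference depended on the window. The Tmem131 promoter and intergenic Wnt11 sequences printed above are of the GC-box kind, and the Sparc and Pik3r1 sequences hold an AP-1 and a TEAD match together.

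**Figure D3:**
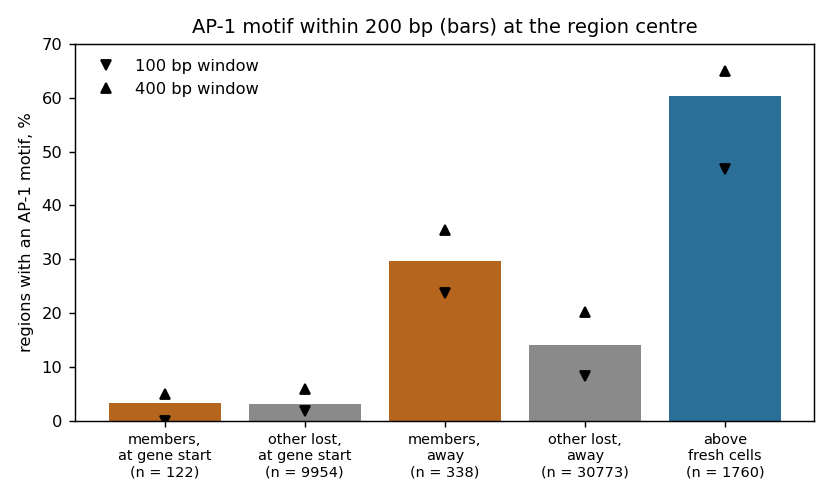
Share of regions (percent) with a TGANTCA match in the central 200 bp (bars) and in 100 bp and 400 bp windows (triangles), for members and other regions lost on 32kPa, at and away from RefSeq gene starts, and for regions above fresh cells. Away from starts the bars stand at 29.6% for members and 14.1% for other lost regions, and at starts at 3.28% and 3.11%.

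The RNA of the 449 genes was then compared, a measure the choice of regions did not use. RNA values are the authors' normalised counts rescaled to a common size, tested with limma on log2(value + 1), and fold changes are on that scale with standard errors; they understate the change of genes with few reads. Of the 449 genes, 432 were in the CD1 table and 438 in the C57BL/6 table; the low-value filter (a mean of 1) kept 401 in each, which are not the same 401 genes, and the counts below are over those of the strain compared. In bulk samples, fewer cells of a type and less RNA per cell cannot be told apart. Libraries held 35858180 to 69524944 recovered reads in CD1 and 14288605 to 51288435 in C57BL/6. Summed epithelial markers were 138 to 375 CPM (counts scaled to library size) in CD1 sham and 1.63 to 3.35 on the gels, leukocyte markers 80.6 to 196 and 8.63 to 20.2, endothelial markers 512 to 528 and 265 to 296, alveolar fibroblast markers 3894 to 4170 and 677 to 999, and adventitial fibroblast markers 28993 to 33899 and 585 to 704. Pericyte markers (11 of 12 in the table, Higd1b at 0 on both gels) were 1837 to 2406 in sham and 583 to 871 on the gels, mesothelial markers 40.4 to 159 and 15.6 to 25.4, and smooth muscle markers went the other way, at 816 to 4004 and 4083 to 5106. All 14 markers of each of the epithelial, leukocyte and endothelial lists were in the table, and none was at 0 throughout sham. On 0.2kPa, Sftpa1, Nkx2-1, Krt8, Scgb1a1 and Spi1 were at 0, and on 32kPa Nkx2-1, Krt8, Cd52, Tyrobp, Cd3e and Cldn5 were. Col1a1, which marks collagen-producing mesenchyme, had a rescaled count of 63152 or more in every library.

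Between 32kPa and 0.2kPa, none of the 401 genes passed limma with Benjamini-Hochberg adjustment, and 0.0% of all 18488 genes tested did. The smallest adjusted p among the 401 was 0.591. At an unadjusted p under 0.05, 4 genes were higher on 32kPa and 10 lower, against 1.75% and 3.72% of all genes, and edgeR and DESeq2 also called 0 in each direction. In the authors' deposited table of that comparison, 0 of 361 member genes and 42 of 14880 genes had an FDR of 0.05 or lower. The 32kPa and 0.2kPa libraries did not overlap for 35 of the 401 genes (8.73%), close to the 9.23% of all genes, and the median log2 fold was −0.01 for both the 401 and all genes.

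These counts rested on 1 library. Without 32kPa replicate 3, 10 member genes passed as higher on 32kPa and 10 as lower among 403 tested, with 1.82% and 2.75% of all 18549 genes passing. Named after their values were seen, the higher ones included Ccl2, a monocyte-attracting chemokine (log2 fold 0.59, limma adjusted p = 0.0227), Mif, a cytokine (1.18), Hspa1b, an inducible heat-shock protein (0.78), and Crip2, a LIM-domain protein (0.89). The lower ones included Diaph1, a formin that nucleates actin filaments (−1.02, limma adjusted p = 0.0139), Reck, an inhibitor of matrix metalloproteases (−0.61), Ncoa4, the ferritinophagy receptor (−1.69), and Adamtsl3, a matrix protein (−0.69). Of the 10 higher genes, 8 had a promoter member, and of the 10 lower genes 2 did; 39.9% of the 401 genes tested over all libraries had one, and no test was made of this split, which was seen after the library was left out.

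Against sham, more member genes were lower than higher, as among all genes. On 32kPa, 141 of 401 were higher (35.2%; 32.4% of all genes) and 191 lower (47.6%; 41.0% of all genes), with a median log2 fold of −0.35 against −0.26 over all genes. On 0.2kPa, 137 were higher (31.9% of all genes) and 185 lower (39.2% of all genes). Genes of promoter members were higher in 69 (43.1%) and lower in 57 (35.6%) of 160 on 32kPa, and genes of the other members in 76 (31.0%) and 134 (54.7%) of 245; the difference between these groups was not tested. Genes of newly opened regions gave 31.3% higher and 45.5% lower of 1123. The wide changes against sham moved together with the marker sums given above, and their part in these counts was not tested.

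Of the 327 genes in lists of matrix, signalling, cytoskeletal, transcription-factor and cell type marker genes, 13 (3.98%) had a member, and 2.17% of all CD1 genes tested did. The YAP/TAZ target (22 genes), contractile (24), AP-1 and CREB (16) and TEAD, RUNX and SRF (20) lists held 0 such genes, and at these shares lists of that size can hold few, so nothing is read from their zeros. Here and below, a gene's percentages of sham are those of the sham-list regions that overlap its member, mostly wider than the member itself. The matrix genes were Col1a1, Col5a2 and Sparc. Col1a1 encodes the main chain of collagen I and gives its name to the reporter used to sort the CD1 cells. Its region in intron 1 of 50, 626 bp past the start, had log2 concentrations of 5.53 on 32kPa and 4.51 on 0.2kPa, and the sham-list region around it fell from 10.79 in sham to 7.68 on 32kPa, 11.5% of the sham level, against 7.48% on 0.2kPa. Col1a1 RNA was 287380, 313137 and 470889 in the 3 sham libraries, 63152, 72110 and 91446 on 0.2kPa, and 81819, 82822 and 69564 on 32kPa. Every gel library was below every sham library, and the gels overlapped. The log2 fold was −2.16 ± 0.21 on 32kPa (limma adjusted p = 3.65e-06) and −2.22 ± 0.21 on 0.2kPa (3.16e-06) against sham, and 0.06 ± 0.21 between the gels (0.971).

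Sparc encodes osteonectin, a collagen-binding matricellular protein. Its region in intron 1 of 9, 1782 bp past the start, had log2 concentrations of 6.17 on 32kPa and 5.03 on 0.2kPa. The sham-list regions around it kept 28.9% of the sham level on 32kPa and 13.5% on 0.2kPa. Sparc RNA was 319264, 324411 and 399889 in sham, 133224, 132087 and 134725 on 0.2kPa, and 130325, 127847 and 121784 on 32kPa. All 3 stiff-gel libraries lay below all 3 soft-gel libraries, with a difference of −0.07 ± 0.14 (limma adjusted p = 0.916), and both gels lay below sham, at −1.45 ± 0.14 on 32kPa (4.42e-06). Between the gels the region was listed as more open on 32kPa, while the RNA did not rise there.

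Col5a2, a chain of the fibril-regulating collagen V, had a region in exon 1 (5′ UTR, chr1:45502917-45503196) with 6.27 on 32kPa and 5.24 on 0.2kPa. The sham-list regions around it kept 54.0% and 26.8% of sham. Col5a2 RNA was 85622, 69258 and 97352 in sham, 116308, 118232 and 112040 on 0.2kPa, and 92375, 111230 and 134136 on 32kPa. The 32kPa libraries overlapped sham, and the soft-gel libraries lay above it. The log2 fold against sham was 0.42 ± 0.17 on 32kPa (limma adjusted p = 0.0464) and 0.47 ± 0.17 on 0.2kPa (0.0292). The first call was lost without 32kPa replicate 2 (0.0852) or 3 (0.142) or without sham replicate 1 (0.0846) or 2 (0.149), and the other was lost without any of the 0.2kPa libraries (0.0579 to 0.0811) or without sham replicate 1 (0.0599) or 2 (0.0958).

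Growth-factor and WNT genes with a member moved in both directions against sham. Pdgfra, the receptor that marks lung fibroblasts, had a region 190 bp past its start in intron 1 of 22. The sham-list regions around it kept 42.6% of the sham level on 32kPa and 19.1% on 0.2kPa. Pdgfra RNA was 73411, 72774 and 62871 in sham, 16292, 15268 and 13810 on 0.2kPa, and 12234, 11720 and 15786 on 32kPa, a log2 fold of −2.40 ± 0.13 on 32kPa against sham (limma adjusted p = 4.57e-08). Its ligand gene Pdgfc, with a 5′ UTR region at 57% and 35.4% of sham, went the other way. Pdgfc RNA was 288, 266 and 223 in sham, 1253, 1308 and 1238 on 0.2kPa, and 1111, 992 and 1187 on 32kPa, a rise of 2.08 ± 0.13 (1.37e-07). Its RNA was thus higher on the gels, where the sham-list regions around its member were less open. All 3 stiff-gel values of Pdgfc were below all 3 soft-gel values, with a difference of −0.21 ± 0.13 (limma adjusted p = 0.788).

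Tgfb3, a TGF-beta ligand, had a promoter region 37 bp upstream of its start (chr12:86078980-86079177) at 18.6% of sham on 32kPa and 10.2% on 0.2kPa. Its RNA was 15224, 19624 and 16147 in sham, 4143, 4277 and 4057 on 0.2kPa, and 3964, 4385 and 3647 on 32kPa, a log2 fold of −2.08 ± 0.11 on 32kPa against sham (limma adjusted p = 3.99e-08) with overlapping gels. Wnt11, a ligand of non-canonical WNT signalling, had the pair of regions printed above. The sham-list regions around the GC-box region, 19084 bp upstream of the Wnt11 start, kept 23.0% and 15.4% of sham on 32kPa and 0.2kPa. Those around the AP-1 region 123417 bp downstream kept 63.7% and 29.9%. Wnt11 RNA was 926, 1723 and 1073 in sham, 326, 454 and 521 on 0.2kPa and 526, 663 and 302 on 32kPa, lower on 32kPa than in sham by −1.34 ± 0.31 (limma adjusted p = 0.0026) and not separated between the gels.

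Tns3, a focal-adhesion tensin, had an annotated intergenic AP-1 region 416886 bp from its start, at 18.4% of sham on 32kPa and 8.54% on 0.2kPa. Tns3 RNA rose from 10918, 10851 and 10962 in sham to 25186, 25138 and 32090 on 32kPa (log2 fold 1.32 ± 0.11, limma adjusted p = 1.1e-06) and to 27654, 26883 and 26778 on 0.2kPa. Foxp1, a forkhead repressor with a region in intron 4 of 17 at 62.0% and 29.7% of sham, also rose, by 1.06 ± 0.11 on 32kPa (4.82e-06). Ebf1, a factor of the fibroblast and adipocyte lineage with a region in intron 7 of 16 at 53.6% and 27.4%, fell by 2.54 ± 0.35 on the log2 scale (6.05e-05). Its 32kPa values were 324, 210 and 699, all below those in sham (2643, 1859 and 1922). Ppargc1a, a coactivator of mitochondrial gene expression whose annotated region lay 481175 bp away, fell from 131, 104 and 114 in sham to 5.77, 11.0 and 8.32 on 32kPa (−3.68 ± 0.41, limma adjusted p = 1.12e-05).

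Of the fibroblast marker genes, Ly6a, which encodes the adventitial marker Sca-1, had a region 1090 bp from its start at 29.1% of sham on 32kPa and 13.9% on 0.2kPa. Ly6a RNA was 29798, 35699 and 36128 in sham, 137, 109 and 149 on 0.2kPa and 154, 154 and 101 on 32kPa, the largest fall among the 13 listed genes (−7.96 ± 0.19 on 32kPa, limma adjusted p = 1.08e-10). Adventitial markers as a whole fell with it, as given above, and their part was not tested. Gyg, glycogenin, had a promoter region at 31.4% and 21.0% of sham and RNA that was higher on 32kPa (4048, 4020 and 3474) than in sham (1609, 2577 and 1859) by 0.96 ± 0.15 (limma adjusted p = 0.000189). All 3 Gyg stiff-gel values were above the soft-gel ones (3380, 3351 and 3402), with a difference of 0.18 ± 0.15 (0.794).

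**Figure D4:**
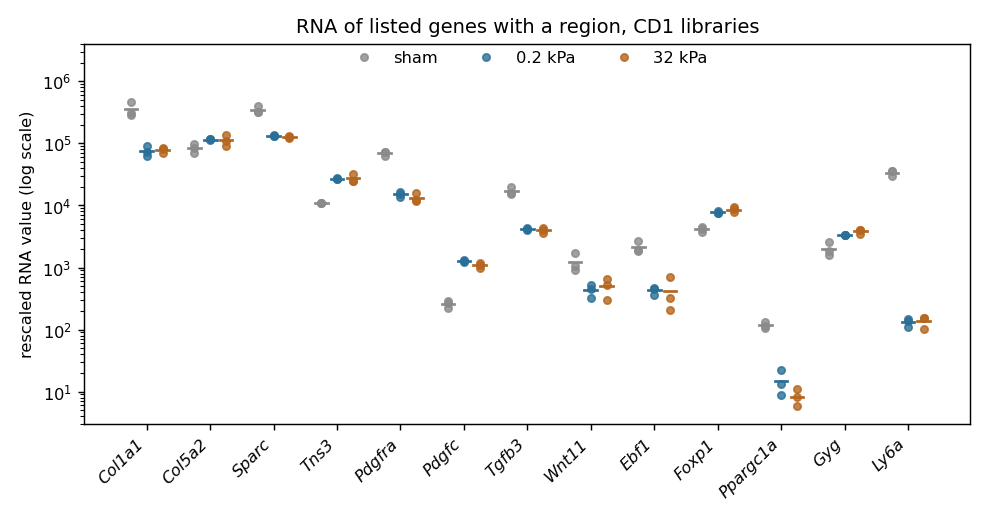
RNA of the 13 listed genes with a member, as rescaled counts on a log axis, in the 3 CD1 sham, 3 soft-gel and 3 stiff-gel libraries; points are libraries and bars group means. Col1a1, Sparc, Pdgfra, Tgfb3, Wnt11, Ebf1, Ppargc1a and Ly6a lie lower on both gels than in sham, Tns3, Pdgfc, Foxp1 and Gyg higher, and no gene passes the test between the gels.

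The 5 members farthest below sham were at 9930021J03Rik (−3.27), Abcb8 (−3.19), Vps26a (−3.17), Col1a1 (−3.12) and Klrb1c (−3.12), each at 10.4% to 11.5% of the sham level on 32kPa. Their RNA did not share a direction. Abcb8, a mitochondrial transporter, fell from 668, 825 and 843 in sham to 369, 359 and 369 on 32kPa (−1.08 ± 0.14, limma adjusted p = 3.05e-05). Vps26a, a retromer subunit that sorts proteins from endosomes, rose from 3432, 3248 and 2664 to 6978, 6821 and 7024 (1.16 ± 0.11, 2.24e-06) although the sham-list region around its promoter member kept 11.1% of the sham level. Klrb1c, a natural killer cell receptor with annotated intergenic regions 27828 bp and 21684 bp from its start, had 3.65, 10.1 and 3.45 in sham and 0 reads in every gel library. The limma test passed it (0.000945) and DESeq2 did not (0.0686).

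The 5 nearest to sham, at 73.7% to 76.8% of its level, were equally mixed. The sham-list regions around the Bean1 promoter member kept 76.8% on 32kPa and 44.8% on 0.2kPa. Bean1 RNA rose from 163, 168 and 148 in sham to 969, 889 and 659 on 32kPa (2.37 ± 0.17, limma adjusted p = 3.44e-07). Arhgap18, whose annotated region lay 223624 bp from its start, fell from 904, 955 and 666 to 337, 289 and 327 (−1.39 ± 0.16, 1.87e-05), and Zcchc14, a zinc-finger protein that binds RNA, fell by 0.75 on the log2 scale (0.000136). Marcks was 12406, 18114 and 10911 in sham and 12064, 14700 and 8757 on 32kPa, overlapping values (limma adjusted p = 0.355). For 4931430N09Rik, with at most 3.45 in any CD1 library, the call against sham (0.0394) was lost without 32kPa replicate 1 (0.116) or 2 (0.113) or without sham replicate 1 (0.0746) or 3 (0.104).

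Genes with more than 1 member included both strong directions. Adamts5, with members in an intron at 39.0% of sham and 342146 bp away at 23.7%, fell from 21077, 20352 and 18570 in sham to 1712, 2437 and 1725 on 32kPa (−3.37 ± 0.14, limma adjusted p = 4.98e-09). Stxbp6, which encodes a SNARE-binding protein, had 2 promoter members and fell from 1328, 1945 and 760 to 63.4, 76.7 and 32.6 (−4.50 ± 0.38, 1.33e-06). Pik3r1, the regulatory subunit of PI3 kinase, fell by 1.22 on the log2 scale (2.58e-06). The replication-dependent histone gene Hist1h4i rose from 6.39, 8.55 and 8.63 to 183, 196 and 81.1 (4.03 ± 0.37, 2.54e-06), and its reads can be shared with near-identical histone copies. Tbc1d1, a Rab GTPase-activating protein, rose by 1.04 ± 0.15 (limma adjusted p = 8.68e-05), Dars, the aspartyl-tRNA synthetase, by 0.70 ± 0.14 (0.00094) and Smco4 by 1.34 ± 0.28 (0.00115). Tmem131, implicated in collagen secretion, fell by 0.55 on the log2 scale (0.00235) with its pair of promoter members in a single sham-list region at 16.5% of sham. The pairs at Dars, Hist1h4i and Smco4 likewise shared a sham-list region.

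In C57BL/6 cells after bleomycin, some member genes were higher and some lower than sham at day14, and none passed the test at day56. At day14, 49 of 401 were higher than sham (12.2%; 9.54% of all 21134 genes) and 39 lower (9.73%; 6.35% of all genes). Genes of newly opened regions gave 13.0% and 9.67%, shares close to those of the member genes. At day56, limma called 0 member genes in either direction, with 17 higher and 25 lower at an unadjusted p under 0.05 (3.04% and 3.26% of all genes); edgeR called 0 in each direction and DESeq2 1 in each, and limma called 0.0% of all genes as higher and 0.00473% as lower. Without day14 replicate 2, 30 member genes were higher at day14. The share of all genes in that fit is not given here, so the lower count is not read as particular to member genes. Leukocyte markers, all 14 in the table and none at 0, summed to 254 to 396 CPM in sham, 613 to 2284 at day14 and 203 to 690 at day56. Between sham and day14, alveolar fibroblast markers went from 7405 to 14032 down to 2292 to 2990 CPM, adventitial markers from 19114 to 25773 down to 13022 to 16055, epithelial markers from 138 to 343 down to 32.4 to 88.7, endothelial markers from 324 to 420 down to 191 to 294, and pericyte markers from 1463 to 1938 up to 2602 to 3037, while smooth muscle and mesothelial sums overlapped. The markers' part in these counts was not tested.

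All 3 matrix genes with a member were higher at day14. Col1a1 RNA was 127301, 119552, 102201 and 71707 in the 4 C57BL/6 sham libraries, 463044, 538169, 736968 and 701744 at day14, and 86516, 82810, 129206 and 120885 at day56. All day14 values lay above all others, with a log2 fold of 2.54 ± 0.24 against sham (limma adjusted p = 1.34e-05), while day56 overlapped sham. Col5a2 was 16415, 16436, 23828 and 14595 in sham and 90199, 92313, 93941 and 89716 at day14 (2.39 ± 0.25, limma adjusted p = 2.42e-05), and Sparc 144315, 134504, 145487 and 125959 in sham and 520843, 490081, 487521 and 505038 at day14 (1.87 ± 0.16, 9.17e-06). Pdgfc rose from 289, 189, 273 and 158 to 1263, 1168, 1507 and 1106 (2.50 ± 0.23, limma adjusted p = 1.34e-05). None of these 4 genes had a member that overlapped a region gained at day14, and only 0.652% of all members did. Other regions of these genes were not looked at, so nothing is read from this.

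Genes that were lower at day14 included Ebf1, from 2638, 1544, 3442 and 1856 in sham to 683, 803, 1109 and 635 (−1.52 ± 0.27, limma adjusted p = 0.00176), and Adamts5, from 3440, 2868, 4335 and 2589 to 1728, 1923, 2146 and 1497 (−0.84 ± 0.18, 0.00486). Adamts5 is the one gene among those with several members whose region was also in the day14 list, as lost. Pdgfra (−0.69 ± 0.22, limma adjusted p = 0.0428) lost its call without any single library of either group (0.0594 to 0.13). Ppargc1a (−1.49 ± 0.44, 0.034) lost it without any but sham replicate 2 or day14 replicate 2 (0.0637 to 0.0982). The higher Foxp1 (0.49 ± 0.14, limma adjusted p = 0.0235) lost it without sham replicate 2 or 4 or day14 replicate 2, 3 or 4 (0.0625 to 0.072).

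Tbc1d1 rose at day14 (1.21 ± 0.27, limma adjusted p = 0.00783), as it had on the gels. Smco4 rose too (1.52 ± 0.39, 0.0148), a call lost without day14 replicate 1 (0.0535). Bean1, from 5.13, 0, 30.1 and 37.2 to 88.3, 59.2, 104 and 132 (0.0353), lost its call without sham replicate 1 or 2 or any day14 library (0.0634 to 0.0895). Klrb1c, from 0, 0, 2 and 7.08 to 19.1, 45.6, 13.8 and 50.5 (3.71 ± 0.87, limma adjusted p = 0.00932; edgeR 0.0861), and Lrrc25, from 0, 0, 1.00 and 0.885 to 5.46, 6.4, 3.25 and 14.7 (2.43 ± 0.78, limma adjusted p = 0.0479), are leukocyte genes at a few reads, and the leukocyte marker sums given above were higher beside them. Ly6a, Gyg, Tns3, Tgfb3 and Wnt11 did not pass at day14.

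**Figure D5:**
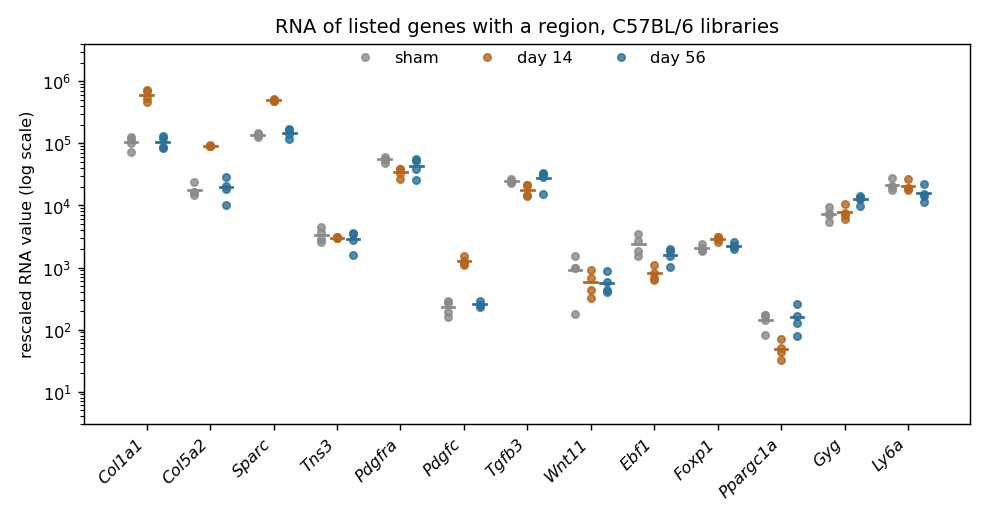
RNA of the same 13 genes as rescaled counts on a log axis in the 4 sham, 4 day14 and 4 day56 libraries of C57BL/6 mice; points are libraries and bars group means. Col1a1, Col5a2, Sparc and Pdgfc stand above every sham library at day14 and overlap sham at day56.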

How the data were processed

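The samples, their groups and the assays are given above; per the labels, cells were sorted from enzymatically digested lung. ATAC lists hold the authors' log2 concentrations, log2 folds, p-values and FDR values per group, made with Bowtie2, MACS2, DiffBind and HOMER on mm10, per the submitters' processing notes and file headers, with no versions given; ATAC depth per library was not used here. RNA tables hold the authors' normalised signal per gene, counts divided by a size factor, from HISAT2, featureCounts and DESeq2 per the same notes. Whole reads could be recovered for 100% of values (tolerance 0.05 reads). In CD1, 855 genes without a symbol, 2.13% to 4.77% of reads, stayed out of the tests.

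Regions were matched by overlap of 1 bp or more, genes by the authors' nearest-gene annotation, and sequence and gene starts taken from the GRCm38 genome and RefSeq annotation. Deposited signal was rescaled by median-of-ratios factors over all libraries of a table, genes with a mean of at least 1 were kept, and limma 3.58.1 with its trend option (R 4.3.3) was fitted on log2(value + 1) over all groups of a table, with Benjamini-Hochberg adjustment at 0.05 over all genes tested (18488 in CD1, 21134 in C57BL/6). The scripts were tested on simulated data. Alternatives were edgeR 4.0.16 and DESeq2 1.42.0 on recovered reads, other pseudocounts, filters and scaling, left-out libraries, a replicate block, and stricter overlap, distance and FDR limits. Regions were named if among the 10 largest gel folds, the 5 nearest to or farthest below sham, on a gene list, or at a gene with several members. The members and lists were chosen with earlier results of these data known. Comparisons of region classes carry no test. Python 3.11.15, pandas 2.3.3, pysam 0.24.0 and matplotlib 3.10.9 were used.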

Additional observations from a re-analysis of the deposited data

Results flagged for a closer look

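In C57BL/6 groups of 4 libraries, 10 of 108 combinations of a named gene and a group had 1 library whose gap to the nearest other was above Dixon's 95% limit as a share of the group's range; chance flags about 1 in 20 groups. In sham, replicate 2 was highest for Abcb8 (1319, others 1062 to 1073) and 9930021J03Rik (666, others 451 to 476). At day14, replicate 2 was highest for Cd101 (76, others 16.2 to 21), replicate 3 for Etv3 (920, others 734 to 744), and replicate 4 was lowest for Dars (3177, others 3509 to 3560). At day56, replicate 2 was highest for Hist2h3b (7.13, others 1.77 to 2.13) and Bean1 (116, others 20.3 to 32) and lowest for Pik3r1 (1946, others 4030 to 4402). Replicate 3 at day56 was highest for Hist1h4i (40.6, others 4.26 to 7.13) and replicate 4 for 4931430N09Rik (21.3, others 0 to 2.13). Day56 replicate 2, which stands out for 3 genes, had 14288605 recovered reads, the fewest of all libraries.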

How the results depend on the processing

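Of 186 recomputed counts, 168 stayed within 1.5 times their value and 18 did not, and of 2704 recomputed values for single genes none changed direction, 63 fell out of and 11 came into the call; the 63 belong to 12 of 177 results. Requiring overlap of at least 50% of each region left 187 members, of which 1 was gained and 1 lost at day14 and 178 lost on 0.2kPa; their genes were higher and lower in 53 and 87 on 32kPa, 52 and 85 on 0.2kPa, and 22 and 22 at day14. At an FDR of 0.01, 327 members remained and 4 were lost at day14. Leaving out 1 library gave 0 to 10 higher and 0 to 10 lower genes between the gels (10 each without 32kPa replicate 3), 135 to 142 and 180 to 193 on 32kPa against sham, 127 to 137 and 172 to 182 on 0.2kPa, 30 to 43 and 28 to 44 at day14 (30 higher without day14 replicate 2), and 0 to 1 each at day56 (1 higher without sham replicate 3, 1 lower without sham replicate 2). Shares of all genes in these refits are not given here, except without 32kPa replicate 3, so the counts are not read as particular to member genes. DESeq2 called 1 higher and 1 lower gene at day56. Values as deposited moved the median of all genes at day56 from −0.02 to −0.22, and in the other comparisons by under 0.1.

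Replicate numbers were not shown to pair the libraries: same-numbered libraries of the groups compared had correlations of −0.16 to 0.12, and many correlated best with another number. For day14 against sham, replicates 1, 3 and 4 correlated best with their own number. With 3 or 4 libraries per group these correlations cannot exclude a pairing. With the replicate block, 0 and 0 member genes were higher and lower between the gels, 141 and 186 on 32kPa against sham, 136 and 183 on 0.2kPa, 37 and 34 at day14 and 0 and 0 at day56. Shares of all genes with the block are not given here. Among named genes the block took Col5a2 (limma adjusted p = 0.056) and 4931430N09Rik (0.0525) on 32kPa against sham and Pdgfra (0.0783), Ppargc1a (0.059), Foxp1 (0.0529) and Bean1 (0.059) at day14 past the threshold of 0.05.

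The ATAC values are group means without library values, so they carry no error, and the sham level of 452 members comes from a wider window. Genes with a few reads are the least certain in the shallowest libraries, day56 replicates 1 and 2 and day14 replicate 4 (14288605 to 17999215 recovered reads).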
